A study of Mus musculus with 8 samples.

Results

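The Notch pathway genes described here are 3 receptors (Notch1, Notch2 and Notch3), 3 ligands (Dll1, Jag1 and Jag2), the receptor-modifying enzyme Lfng and 3 target genes (Hes1, Hey1 and Heyl). They were taken by symbol from a table of 32574 genes, and all 10 were found. The study sequenced RNA of basal epidermal cells isolated by cell sorting from mouse skin, with and without ablation, to ask how clonal expansion and the fluidity of the tissue come about. There were 4 groups of 2 libraries: K14 ablation and K14 control, and Lrig1 ablation and Lrig1 control. The genotype of both ablation groups is given as basal lineage ablation, and that of both control groups as WT. In mice, keratin 14 (K14) is a keratin of the basal layer and Lrig1 a marker of upper hair follicle stem cells. The sources used here do not give how cells were ablated, what K14 and Lrig1 stand for (the promoter of a transgene, the gate of the sort or the cells ablated), or the strain, age and time after ablation. They also leave unsaid whether the libraries of a group are separate animals, and p-values therefore speak only of the spread among these libraries, which may be technical.

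The libraries held 6458636 to 11654135 reads. Values are normalised read counts, that is reads divided by a size factor of the library, and differences were tested on log2(normalised read count + 1) with limma, a linear model with moderated variances. P-values were adjusted over all tested genes by the Benjamini-Hochberg method, and a gene is said to pass, rise or fall at an adjusted p under 0.05. Whether the libraries of the groups overlap is given as a description only. With 2 libraries a group, many unchanged genes also lie apart, and their share over all genes was not counted. EdgeR and DESeq2, which model the read counts recovered from these values, were run beside it. So was limma with array weights, which here give less weight to a pair of libraries that are unlike each other. With 2 libraries a group, the weights cannot single out 1 library of a pair. The epithelial markers Epcam, Cdh1, Krt5 and Krt14 were present in all 8 libraries, with a summed normalised read count of 64017 to 165710. The ablation pairs were less alike than the control pairs. The 7 basal keratinocyte markers summed to 209178 in Lrig1 ablation library 1 and 90747 in library 2, against 107216 and 116747 in the Lrig1 control libraries. Upper hair follicle markers summed to 8569 and 23164 in the Lrig1 ablation libraries, against 37072 and 39604 in the Lrig1 control libraries. They summed to 2507 and 6991 in K14 ablation, against 5400 and 5340 in K14 control. Most of the Lrig1 sums was Krt79, at 4961 and 15797 in Lrig1 ablation and 28938 and 31438 in Lrig1 control, which did not pass (limma, adjusted p = 0.298). The 1 of these 5 markers that passed after Lrig1 ablation was higher: Lgr6 had 926 and 904 in Lrig1 ablation and 346 and 364 in Lrig1 control (limma, adjusted p = 0.0332). These are bulk libraries, so fewer cells of a type and less RNA per cell cannot be told apart.

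Notch receptors are transmembrane proteins that are activated by Delta-like and Jagged ligands on neighbouring cells. After ligand binding, cleavage by ADAM10 and then by gamma-secretase frees the intracellular domain, which joins the DNA-binding protein RBPJ and switches on genes of the Hes and Hey families of transcriptional repressors. Fringe enzymes such as LFNG add sugars to the receptor that change its response to Delta-like and Jagged ligands. In mouse epidermis the pathway is known for promoting the commitment of basal cells to the differentiated, suprabasal layers, and Hes1 is among its targets there.

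The positions are those of GENCODE M21 on GRCm38, and all 10 genes are protein-coding. Of the receptors, Notch1 (ENSMUSG00000026923) is at chr2:26457903-26516663 on the minus strand, Notch2 (ENSMUSG00000027878) at chr3:98013527-98150361 on the plus strand and Notch3 (ENSMUSG00000038146) at chr17:32120820-32166852 on the minus strand. Of the ligands, Dll1 (ENSMUSG00000014773) is at chr17:15367354-15376872 on the minus strand, Jag1 (ENSMUSG00000027276) at chr2:137081456-137116644 on the minus strand and Jag2 (ENSMUSG00000002799) at chr12:112907819-112929776 on the minus strand. The fringe gene Lfng (ENSMUSG00000029570) is at chr5:140607320-140615545 on the plus strand. Of the targets, Hes1 (ENSMUSG00000022528) is at chr16:30064384-30067796 on the plus strand, Hey1 (ENSMUSG00000040289) at chr3:8663359-8667256 on the minus strand and Heyl (ENSMUSG00000032744) at chr4:123233556-123249875 on the plus strand.

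Promoter windows of 4 of these genes are printed because the first 3 passed the test after Lrig1 ablation and the last holds the RBPJ core motif. Each is the plus or minus strand sequence of the 250 bases before the gene's RefSeq start in GRCm38.p6, written 5′ to 3′ along the gene. Capitals mark TGGGAA, the core of the RBPJ site, and CACGNG, a site class bound by Hes and Hey proteins, on either strand. The Notch2 window is chr3:98013288-98013537 on the plus strand, Notch3 chr17:32166891-32167140 on the minus strand, Jag2 chr12:112929496-112929745 on the minus strand and Lfng chr5:140607091-140607340 on the plus strand.
Notch2: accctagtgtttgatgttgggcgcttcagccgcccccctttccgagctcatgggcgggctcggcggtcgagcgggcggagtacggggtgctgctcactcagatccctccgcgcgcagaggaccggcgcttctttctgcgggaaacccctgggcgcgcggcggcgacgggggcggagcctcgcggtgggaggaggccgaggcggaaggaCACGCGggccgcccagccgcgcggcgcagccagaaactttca
Notch3: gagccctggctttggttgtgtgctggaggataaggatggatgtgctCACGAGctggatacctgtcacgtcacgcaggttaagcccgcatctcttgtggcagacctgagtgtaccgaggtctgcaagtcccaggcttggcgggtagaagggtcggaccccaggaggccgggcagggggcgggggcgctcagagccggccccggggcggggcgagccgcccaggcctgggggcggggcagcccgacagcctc
Jag2: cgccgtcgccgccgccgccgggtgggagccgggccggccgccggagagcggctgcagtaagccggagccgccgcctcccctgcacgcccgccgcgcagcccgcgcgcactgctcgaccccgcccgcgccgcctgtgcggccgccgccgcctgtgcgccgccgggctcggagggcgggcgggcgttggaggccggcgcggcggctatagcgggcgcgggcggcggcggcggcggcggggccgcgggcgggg
Lfng: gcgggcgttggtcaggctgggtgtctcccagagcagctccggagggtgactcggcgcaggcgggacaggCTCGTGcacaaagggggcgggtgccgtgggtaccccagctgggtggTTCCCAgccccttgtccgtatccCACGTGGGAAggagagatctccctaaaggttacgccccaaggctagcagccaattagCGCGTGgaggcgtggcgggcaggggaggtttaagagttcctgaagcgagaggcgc
In Lfng, TGGGAA lies 135 bases upstream of the start on the minus strand and 108 bases upstream on the plus strand. The plus-strand copy overlaps a palindromic CACGTG that begins 112 bases upstream and that matches CACGNG on both strands. RefSeq windows were found for 7 of the 10 genes, and 8 windows in all since Dll1 has more than 1 start. TGGGAA was in 1 of the 8 windows and in 21.6% of the 32851 mouse windows of this length, and CACGNG was in 6 of 8 and in 23.5%. A match is a match of letters and no match says only that these letters are not in the window.

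Per kilobase of exon, the order of the genes was led in each group by Hes1 or Notch1, while Hey1 and Heyl were last. In the K14 ablation libraries Notch1 averaged 473 ± 53.9 normalised reads per kb and Hes1 436 ± 67.3, which were within their spread, followed by Jag2 and Jag1 at 359 and 344 (SD, n = 2). In K14 control libraries Hes1 led with 863 ± 67.5 per kb, ahead of Jag1 at 391 and Notch1 at 356 (SD, n = 2). In Lrig1 ablation libraries Hes1 had 528 per kb, Jag1 411 and Notch1 402. In Lrig1 control libraries Hes1 had 701 per kb, Notch1 392 and Jag1 337. Within their spread, Notch1 and Jag1 did not differ in the Lrig1 ablation libraries. Notch2 held rank 4 of 10 in Lrig1 control, at 306 ± 3.43 per kb (SD, n = 2), and rank 5 in the other groups, at 158 ± 35.3 in Lrig1 ablation, 157 ± 0.817 in K14 ablation and 134 ± 7.03 in K14 control. Notch3 held rank 5 in Lrig1 control, at 211 ± 2.21 per kb, and rank 7 or 8 elsewhere, at 91.9 ± 20.7 in Lrig1 ablation, 91.1 ± 11.8 in K14 ablation and 83.7 ± 1.22 in K14 control. Dll1, Lfng and Notch3 lay within their spread of each other in the Lrig1 ablation libraries, at 102.9, 103.2 and 91.9 per kb.

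After ablation in the Lrig1 population, the receptors Notch2 and Notch3 fell and the ligand Jag2 rose. In these libraries 3 of the 9 tested genes passed an adjusted p of 0.05 with limma, where 4.06% of all 18140 tested genes passed, 3.3% lower and 0.766% higher. Heyl was not tested, because it did not reach the minimum level. These calls rest on the spread of all 8 libraries. With only the 4 Lrig1 libraries fitted, 0 of the 9 passed, beside 170 of all genes. The limma adjusted p was then 0.106 for Notch2, 0.0668 for Notch3 and 0.124 for Jag2. In the K14 population, 0 of the 9 genes passed with limma, where 0.187% of all genes did. There, 2 of the 9 had an unadjusted p under 0.05 (Hes1 and Dll1), as did 2327 of all 18140 tested genes. EdgeR called 0 of the 9 and 32 of all genes, and DESeq2 called 1 (Hes1) and 220. The median log2 fold change of the 9 genes was 0.03 after Lrig1 ablation and 0.23 after K14 ablation, beside -0.02 and 0 over all tested genes. The count after Lrig1 ablation was lower without any 1 of the 4 control libraries of either population and higher without either Lrig1 ablation library. The count after K14 ablation was higher without K14 ablation library 2 and without either Lrig1 ablation library. In each of these settings the count over all genes moved the same way. Scaled to library totals, the calls over all genes after Lrig1 ablation were 551 higher and 366 lower, against 139 higher and 598 lower as deposited, and that scaling moved the median of all genes to 0.23.

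**Figure D1:**
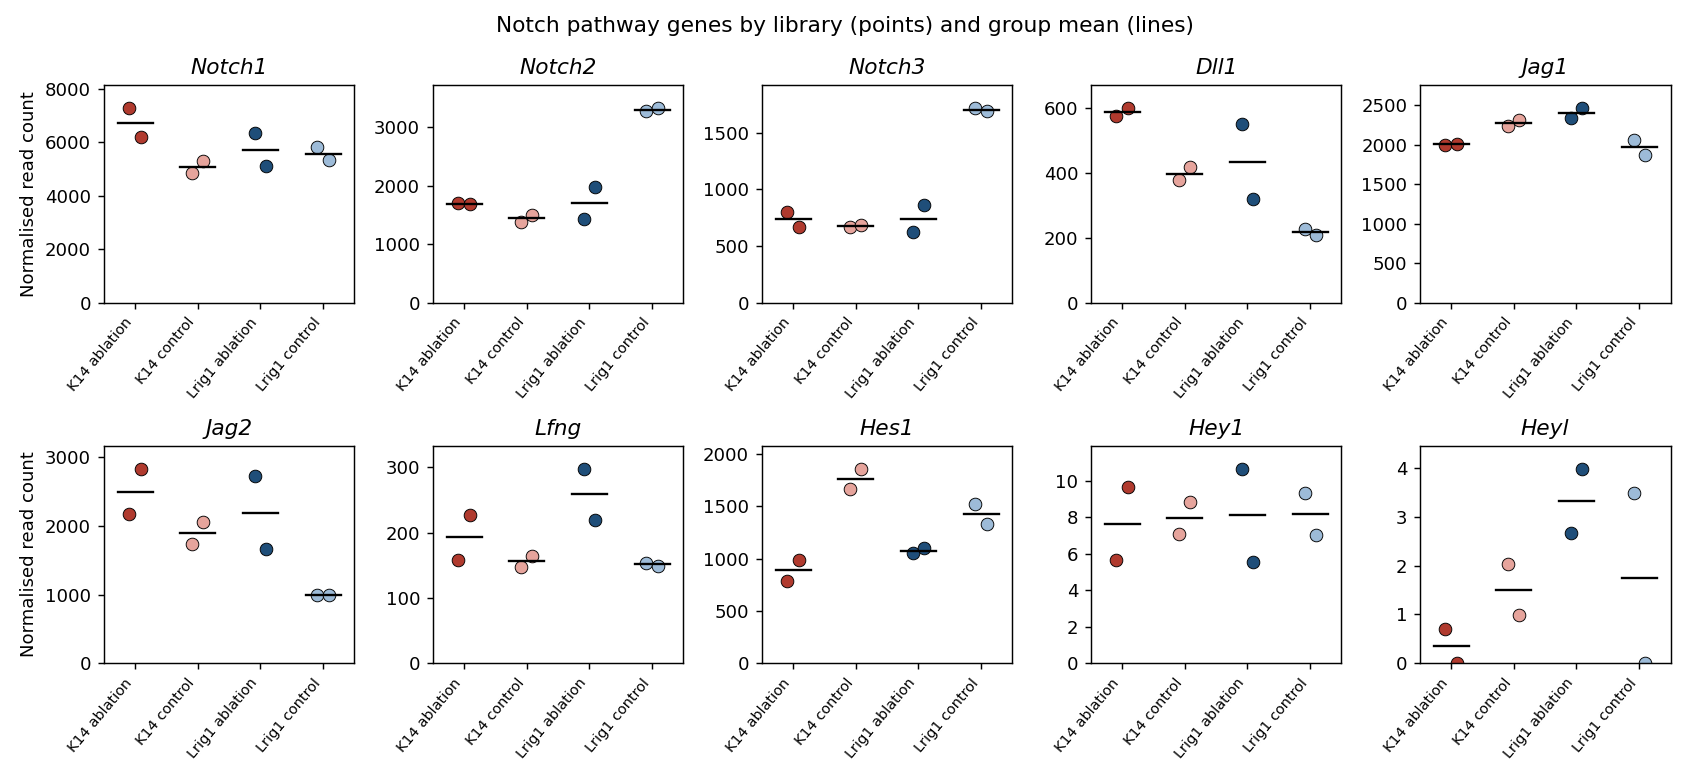
Normalised read count of each of the 10 Notch pathway genes in each library (y axis, linear from 0; 1 point a library, 2 libraries a group, lines at the group mean), with each ablation group left of its control group. Notch2 and Notch3 are at 1439 to 1977 and 625 to 861 in the Lrig1 ablation libraries, below 3276 and 3328, and 1718 and 1693, in the Lrig1 control libraries.

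Among the receptors, Notch2 had 1439 and 1977 normalised reads in the Lrig1 ablation libraries, against 3276 and 3328 in the Lrig1 control libraries. It had 1699 and 1686 in the K14 ablation libraries and 1388 and 1496 in the K14 control libraries. Both Lrig1 control libraries stood above all others, and the K14 groups did not overlap either. In the Lrig1 population the log2 fold change came to -0.97 ± 0.17 (SE; limma, adjusted p = 0.0234), a mean 1.93-fold lower after ablation. In the K14 population it was 0.23 ± 0.17 (limma, adjusted p = 0.604). The fall of Notch2 no longer passed without K14 control library 1 (limma, adjusted p = 0.0794), K14 control library 2 (0.0788), Lrig1 control library 1 (0.207) or Lrig1 control library 2 (0.235), and without an ablation library it ran at an adjusted p between 0.00197 and 0.0269. Scaled to library totals it was -0.72 (limma, adjusted p = 0.0686).

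Notch3, a receptor known in vessels as that of smooth muscle cells and pericytes, had 625 and 861 normalised reads in the Lrig1 ablation libraries, against 1718 and 1693 in the Lrig1 control libraries. The K14 ablation libraries had 804 and 670.0 and the K14 control libraries 670.3 and 684, so those groups overlapped while the Lrig1 groups were apart. The log2 fold change was -1.22 ± 0.18 after Lrig1 ablation (SE; limma, adjusted p = 0.0134), a mean 2.30-fold lower, and 0.12 ± 0.18 after K14 ablation (limma, adjusted p = 0.824). Without K14 control library 1 or 2 the Lrig1 value had a limma adjusted p of 0.0524 or 0.0529, and without Lrig1 control library 1 or 2 of 0.158 or 0.189. Notch3 shares 488 exon bases with Gm17276 on the opposite strand, whose value was 13.2% to 15.6% of that of Notch3 across libraries. The strand setting of the counting is not given, so how reads of the shared bases were assigned is not known.

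Notch1, the receptor whose loss in mouse epidermis is known to disturb differentiation, had 7278 and 6193 normalised reads in the K14 ablation libraries and 4844 and 5295 in the K14 control libraries. These groups did not overlap, but the log2 fold change of 0.41 ± 0.18 did not pass (SE; limma, adjusted p = 0.392). The Lrig1 ablation libraries had 6348 and 5096 and the Lrig1 control libraries 5817 and 5341, which overlapped (log2 fold change 0.03 ± 0.18, limma, adjusted p = 0.951). Notch1 shares 1068 exon bases with 0610009E02Rik on the opposite strand, at 11.9% to 14.9% of its value.

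The make-up of the receptors followed from these values. Notch1 was 67.9% and 55.3% of the per-kilobase sum of the 3 receptors in the Lrig1 ablation libraries, against 44.2% and 42.0% in the Lrig1 control libraries. It was 66.6% and 64.5% in the K14 ablation libraries and 61.7% and 62.5% in the K14 control libraries. The share of Notch3 was 11.8% and 16.4% in the Lrig1 ablation libraries, against 23.0% and 23.4% in the Lrig1 control libraries. The lowest share of Notch1 was thus found in the Lrig1 control libraries, and the other 6 libraries lay higher. These shares are descriptions with no test.

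**Figure D2:**
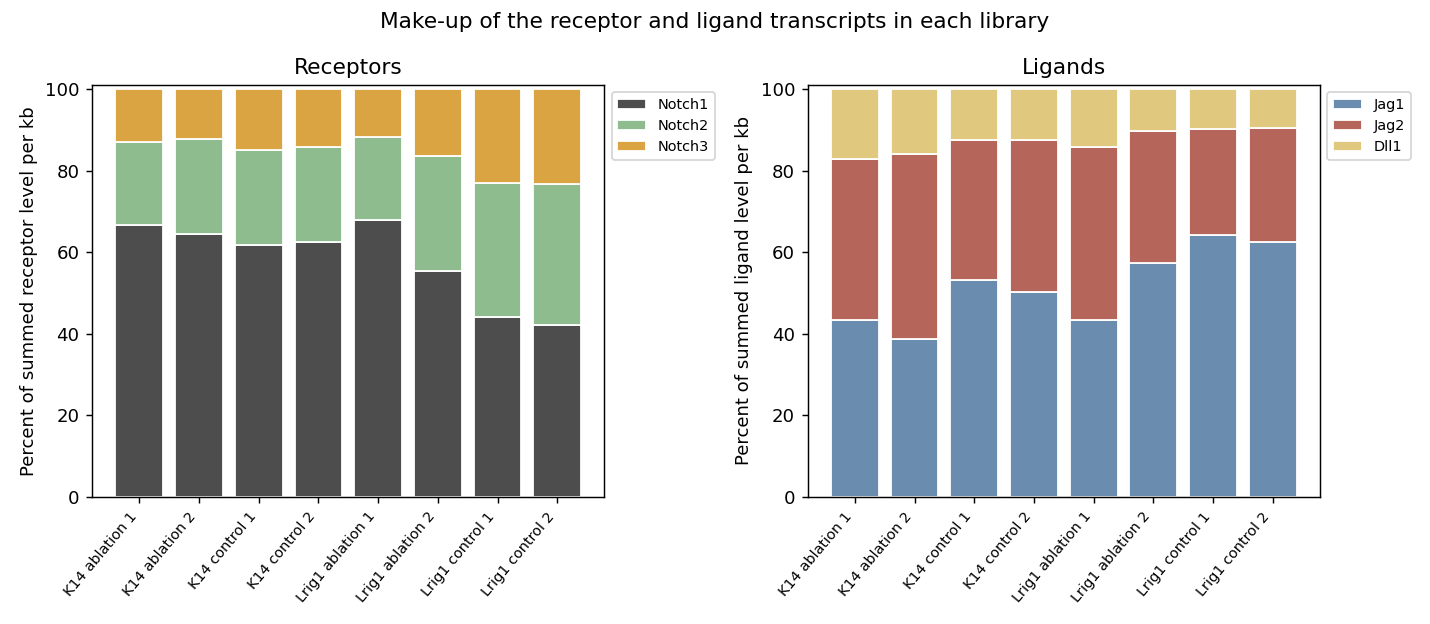
Share of each receptor in the summed per-kilobase level of the 3 receptors, and of each ligand in that of the 3 ligands, in each library (y axis, percent; 1 bar a library, ablation left of control). Notch1 holds 55.3% and 67.9% of the receptor sum in the Lrig1 ablation libraries, against 42.0% and 44.2% in the Lrig1 control libraries.

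Among the ligands, Jag2, which is made by basal keratinocytes in mouse skin, had 2723 and 1661 normalised reads in the Lrig1 ablation libraries, against 999.99 and 989.6 in the Lrig1 control libraries. In the K14 ablation libraries it had 2170.0 and 2827, against 1739.7 and 2053 in the K14 control libraries. The ablation libraries were above their own controls in both populations, with the 2 Lrig1 ablation libraries far apart from each other. The log2 fold change after Lrig1 ablation was 1.1 ± 0.24 (SE; limma, adjusted p = 0.0486), a mean 2.20-fold higher, and after K14 ablation 0.39 ± 0.24 (limma, adjusted p = 0.535). This rise was close to the threshold. It had a limma adjusted p of 0.0503 with a pseudocount of 0.5, 0.0669 with no filter on low values, 0.0727 with the replicate number as a block, 0.115 with K14 control library 1 or 2 left out, 0.278 without Lrig1 control library 1 and 0.316 without library 2. Without Lrig1 ablation library 2 it was 1.45 (limma, adjusted p = 0.00562) and without library 1 it was 0.74 (limma, adjusted p = 0.0406).

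Dll1, a Delta-like ligand that marks clusters of stem cells in human epidermis, had 550.2 and 318 normalised reads in the Lrig1 ablation libraries, against 227 and 207 in the Lrig1 control libraries. In the K14 population it had 575 and 598 in the ablation libraries and 378 and 416 in the control libraries, so the groups did not overlap in either population. The log2 fold changes were 0.94 ± 0.24 (SE; limma, adjusted p = 0.0733) and 0.56 ± 0.24 (limma, adjusted p = 0.384), and neither passed. The Lrig1 value passed in DESeq2 (adjusted p = 0.0135), scaled to library totals (limma, adjusted p = 0.03) and without Lrig1 ablation library 1 (log2 fold change 0.55, limma, adjusted p = 0.0422) or library 2 (1.34, limma, adjusted p = 0.00283). The K14 value passed without Lrig1 ablation library 1 or 2 (limma, adjusted p = 0.0456 or 0.0434). Dll1 shares 867 exon bases, 20.55% of its exons, with A930024N18Rik on the opposite strand, at 27.2% to 34.8% of its value.

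Jag1, the other Jagged ligand, had 2333 and 2461 normalised reads in the Lrig1 ablation libraries, against 2062 and 1866 in the Lrig1 control libraries. In the K14 ablation libraries it had 1998 and 2013, against 2240.4 and 2312 in the K14 control libraries. The order of ablation and control was thus opposite in the populations, without overlap in either. The log2 fold changes of 0.29 ± 0.13 (SE; limma, adjusted p = 0.272) and -0.18 ± 0.13 (limma, adjusted p = 0.599) did not pass, nor did their difference of 0.47 ± 0.19 (limma, adjusted p = 0.298). Per kilobase, the ratio of Jag2 to Jag1 was 0.976 and 0.565 in the Lrig1 ablation libraries, against 0.406 and 0.444 in the Lrig1 control libraries. It was 0.909 and 1.175 in the K14 ablation libraries and 0.65 and 0.743 in the K14 control libraries, and exceeded 1 in a single library.

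Lfng, which encodes the fringe enzyme, had 297 and 219.7 normalised reads in the Lrig1 ablation libraries, against 154 and 149 in the Lrig1 control libraries. It had 158 and 227 in the K14 ablation libraries and 147 and 164 in the K14 control libraries, where the groups overlapped. The log2 fold changes were 0.75 ± 0.23 (SE; limma, adjusted p = 0.119) and 0.28 ± 0.23 (limma, adjusted p = 0.64). The Lrig1 value passed scaled to library totals (limma, adjusted p = 0.0426) and without Lrig1 ablation library 2 (limma, adjusted p = 0.0424).

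Among the targets, Hes1 had 790.3 and 984 normalised reads in the K14 ablation libraries, against 1660.5 and 1855 in the K14 control libraries. It had 1053 and 1099 in the Lrig1 ablation libraries, against 1525 and 1329 in the Lrig1 control libraries. All 4 ablation libraries lay below all 4 control libraries. The log2 fold change after K14 ablation was -0.99 ± 0.16 (SE; 95% interval -1.36 to -0.63), a mean 1.98-fold lower, with an unadjusted p of 0.000229 that did not pass over all genes (limma, adjusted p = 0.0741). After Lrig1 ablation it was -0.4 ± 0.16 (95% interval -0.77 to -0.04; limma, adjusted p = 0.205). The difference between the effects was 0.59 ± 0.22 and did not pass (limma, adjusted p = 0.283).

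The mean of the K14 and Lrig1 effects was taken after these values had been seen, and is therefore a description of the libraries more than a test of them. Under it Hes1 was lower after ablation by a log2 fold change of -0.7 ± 0.11 (SE; 95% interval -0.96 to -0.44; limma, adjusted p = 0.0205). Hes1 was the 1 gene of 9 that passed under the mean, where 2.83% of all tested genes passed and 2.02% were lower. Without K14 control library 1 or 2 its limma adjusted p was 0.125 or 0.158, and without Lrig1 control library 1 or 2 it was 0.149 or 0.114. The count under the mean was lower without any 1 of these control libraries and higher without either Lrig1 ablation library. The count over all genes moved the same way. For the K14 effect of Hes1 alone, DESeq2 gave an adjusted p of 0.000804 and limma with array weights 0.00803. Limma without K14 ablation library 2 gave -1.15 (adjusted p = 0.0274), without Lrig1 ablation library 1 or 2 an adjusted p of 0.0213 or 0.0209, and without K14 control library 1 or 2 an adjusted p of 0.688 or 0.78.

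The other targets were close to the limit of detection. Hey1 had 5.66 and 9.65 normalised reads in the K14 ablation libraries and 7.11 and 8.86 in the K14 control libraries, with overlap. In the Lrig1 population it had 10.7 and 5.57 in ablation and 9.31 and 7.05 in control, again with overlap. These were 5 to 12 reads a library, and a difference was not detectable at this depth (log2 fold changes -0.09 ± 0.52 and -0.06 ± 0.52; limma, adjusted p = 0.961 and 0.967). Heyl had 0 to 5 reads a library, where a floor of 3 reads is 2.12 to 4.23 normalised reads and covers counting error only. Its values were 0.708 and 0 in the K14 ablation libraries, 2.03 and 0.985 in the K14 control libraries, 2.66 and 3.98 in the Lrig1 ablation libraries, and 3.49 and 0 in Lrig1 control.

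**Figure D3:**
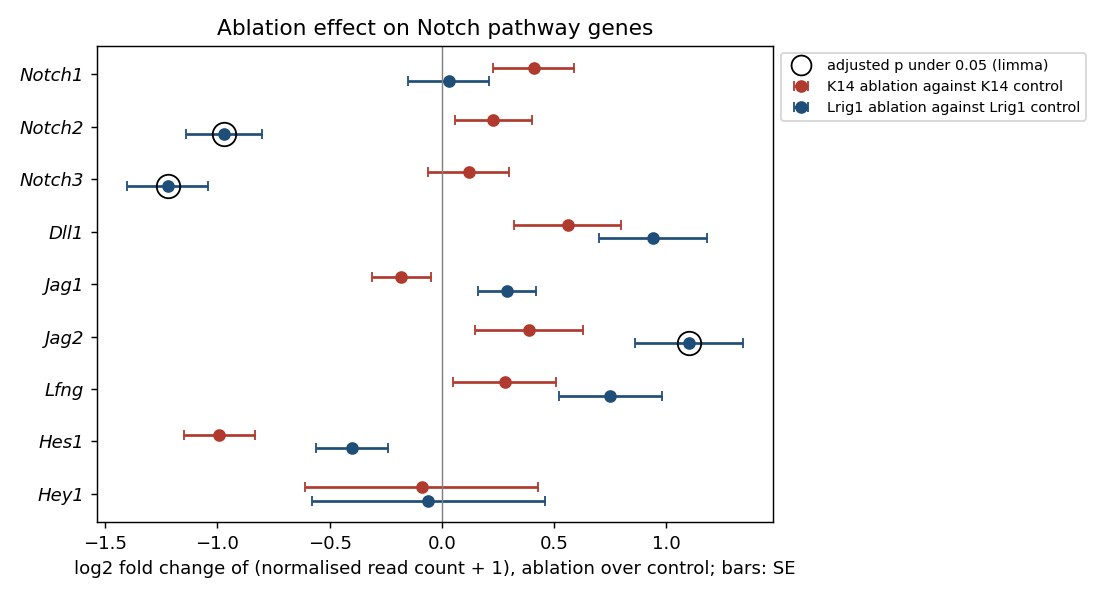
Log2 fold change of ablation over control for the 9 tested genes in the K14 and the Lrig1 population (x axis, log2 of normalised read count + 1; points are limma estimates, bars are SE and open circles mark an adjusted p under 0.05). Notch2 (-0.97), Notch3 (-1.22) and Jag2 (1.1) passed in the Lrig1 population, and Hes1 is lowest in the K14 population at -0.99.

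The fall of Notch2 and Notch3 in 1 population was not shown by limma to differ from their change in the other. The difference between the ablation effects, Lrig1 minus K14, was tested directly. Of the 9 genes 0 passed with limma, where 0.198% of all genes did. An unadjusted p under 0.05 was found for 4 of the 9 and for 2718 of all 18140 tested genes. EdgeR called 0 of the 9 and 32 of all genes, and DESeq2 called 2 and 308. Notch2 had a difference of -1.2 ± 0.24 (SE; limma, adjusted p = 0.0891) and Notch3 one of -1.33 ± 0.25 (limma, adjusted p = 0.0783). DESeq2 called these 2 with adjusted p = 0.0139 and 0.00838. They also passed in limma with array weights (adjusted p = 0.0388 and 0.0332), without Lrig1 ablation library 1 (0.0166 and 0.0187) and without Lrig1 ablation library 2 (0.0099 and 0.012). For Jag2 the difference was 0.71 ± 0.34 (limma, adjusted p = 0.382), so its effect was not shown to differ between the populations.

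Without ablation, the populations differed in the receptors Notch2 and Notch3. Notch1 was not shown to differ, at a log2 fold change of 0.14 ± 0.18 (SE; limma, adjusted p = 0.695). Notch2 and Notch3 were higher in the Lrig1 control libraries, by a log2 fold change of 1.2 ± 0.17 (SE; limma, adjusted p = 0.00721) and 1.33 ± 0.18 (limma, adjusted p = 0.00623), or 2.29-fold and 2.52-fold in the means. These were 2 of the 9 genes, where 8.79% of all genes passed, 6.52% higher and 2.27% lower. Jag2 and Dll1 were lower in the Lrig1 control libraries without passing, at -0.93 ± 0.24 (limma, adjusted p = 0.0544) and -0.87 ± 0.24 (limma, adjusted p = 0.0653), and both passed in DESeq2. Leaving out K14 control library 1 or 2 or Lrig1 control library 1 or 2 gave Notch2 a limma adjusted p of 0.0929, 0.0732, 0.0947 and 0.101 in that order, and Notch3 one of 0.0732, 0.0713, 0.0829 and 0.0885. With only the 4 control libraries fitted, which leaves out the spread of the ablation pairs, 6 of the 9 genes and 7269 of all genes passed. The limma adjusted p was then 1.02e-09 for Notch2, 5.2e-10 for Notch3, 1.63e-07 for Jag2 and 6.37e-06 for Dll1. The comparison shares the Lrig1 control libraries with the Lrig1 ablation effect. The count of the 9 genes that passed was lower without any 1 of the 4 control libraries and higher without either Lrig1 ablation library. The count over all genes moved the same way. Over all genes, 1183 were higher and 411 lower in Lrig1 control, and scaled to library totals 958 were higher and 610 lower.

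Between the ablation groups, Notch2 and Notch3 had nearly the same levels. With limma 0 of the 9 genes passed, where 0.667% of all genes did. None of the 9 had an unadjusted p under 0.05, beside 2970 of all 18140 tested genes. EdgeR and DESeq2 both called 0 of the 9, beside 135 and 664 of all genes. The log2 fold change of Lrig1 ablation over K14 ablation was 0 for Notch2 (95% interval -0.4 to 0.39) and 0 for Notch3 (95% interval -0.41 to 0.41). These intervals do not reach the differences between the control groups. For Dll1 it was -0.49 ± 0.24 (SE; limma, adjusted p = 0.358), and without Lrig1 ablation library 1 it was -0.88 and passed (limma, adjusted p = 0.00691).

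**Figure D4:**
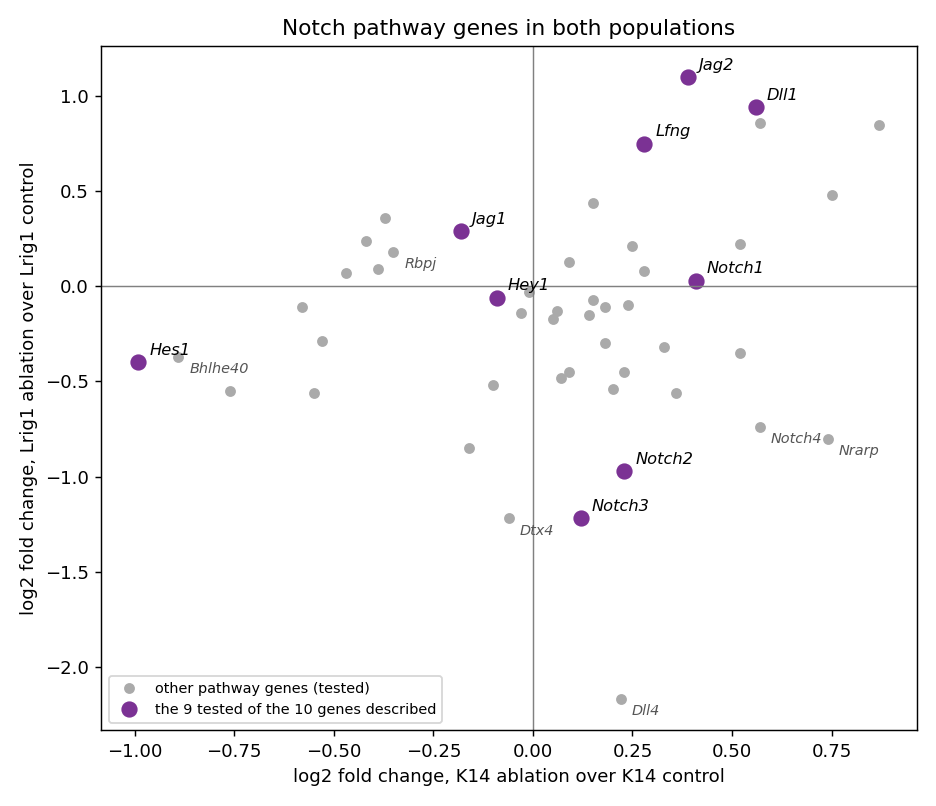
Log2 fold change of ablation over control in the Lrig1 population (y axis) against that in the K14 population (x axis) for the 9 tested genes and the tested genes of the wider pathway list (1 point a gene). Notch2 and Notch3 lie below 0 on the y axis only, at -0.97 and -1.22 against 0.23 and 0.12, and Hes1 lies below 0 on both, at -0.4 and -0.99.

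Around these genes, a wider list of 49 pathway genes held 48 in the table and 40 that could be tested. After Lrig1 ablation 0 of the 40 passed higher and 1 lower with limma, and 10 had an unadjusted p under 0.05, as did 3643 of all 18140 tested genes, with a median log2 fold change of -0.14 beside -0.02 over all genes. After K14 ablation 0 passed, with 10 at an unadjusted p under 0.05, beside 2327 of all 18140, and a median of 0.12 beside 0.

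Nrarp, a target that feeds back on the pathway, had 555 and 465 normalised reads in the K14 ablation libraries and 299 and 309 in the K14 control libraries. In the Lrig1 population it had 357 and 522 in the ablation libraries and 745 and 758 in the control libraries. It was thus higher in ablation in the K14 population and lower in the Lrig1 population, without overlap. The log2 fold changes of 0.74 ± 0.2 and -0.8 ± 0.2 did not pass, nor did the difference of -1.54 ± 0.28 (SE; limma, adjusted p = 0.218 in K14, 0.066 in Lrig1 and 0.0735 for the difference). This order was not that of Hes1, which was lower in ablation in both populations.

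In Lrig1 control against K14 control, 5 of the 40 wider genes passed higher and 1 lower with limma, where 6.52% of all tested genes passed higher and 2.27% lower. Nrarp was higher by a log2 fold change of 1.3 ± 0.2 (SE; limma, adjusted p = 0.00886) and Neurl1b, a ubiquitin ligase for Notch ligands, by 1.22 ± 0.2 (limma, adjusted p = 0.0112). Dtx4, a Deltex family ubiquitin ligase, was higher by 2.29 ± 0.56 (limma, adjusted p = 0.0432). The ligand gene Dll4 had 18.6 and 18.3 normalised reads in the Lrig1 control libraries and 2.03 and 2.95 in the K14 control libraries, the lower being 2 and 3 reads (log2 fold change 2.49 ± 0.62, limma, adjusted p = 0.0458). The Dll4 call was lost with a pseudocount of 0.5 (limma, adjusted p = 0.0559), no filter (0.072), scaling to library totals (0.0516), the replicate block (0.0661) and DESeq2 (0.139), and its value ran from 1.65 to 2.89 over the 10 settings that keep all libraries or only those compared. Bhlhe40, a repressor, was lower by -1.02 ± 0.2 (limma, adjusted p = 0.0196). None of these named calls held without K14 control library 1 or 2, nor, apart from Dll4, which then was not tested, without Lrig1 control library 1 or 2: the limma adjusted p was 0.208 to 0.278 for Dll4, 0.0824 to 0.106 for Nrarp, 0.0622 to 0.122 for Neurl1b, 0.215 to 0.235 for Dtx4 and 0.143 to 0.176 for Bhlhe40.

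Of the core components, Rbpj, Adam10, Maml1 and Rfng did not pass in either ablation comparison. Rbpj had 220.04 and 202 normalised reads in the K14 ablation libraries and 269 in each K14 control library. Its counts were 319 and 427 in Lrig1 ablation and 319 and 334 in Lrig1 control. Its log2 fold changes were -0.35 and 0.18 (limma, adjusted p = 0.449 and 0.636). Those of Adam10 were 0.33 after K14 ablation and -0.32 after Lrig1 ablation (limma, adjusted p = 0.463 and 0.351), of the coactivator Maml1 0.06 and -0.13, and of the fringe gene Rfng 0.52 and 0.22 (limma, adjusted p = 0.373 and 0.637). Notch4 stayed between 2.83 and 16.3 normalised reads. Hes5 and Hey2 had at most 2.39 and 4.29 normalised reads and were not tested.

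Markers of other cell states and types differed in the same libraries. The 7 suprabasal keratinocyte markers summed to 33585 and 32878 in the Lrig1 ablation libraries, against 104522 and 118455 in the Lrig1 control libraries, and 4 of the 7 passed lower. They summed to 79129 and 54209 in the K14 ablation libraries and 68652 and 63929 in the K14 control libraries, with 0 of 7 passing with limma and 4 at an unadjusted p under 0.05. Their median log2 fold change after K14 ablation was -0.6. Krt1, which weighs on that sum, had 42464 and 24209 in K14 ablation and 15925 and 15135 in K14 control, whereas Krt10 had 33301 and 25807 in K14 ablation and 46312 and 42573 in K14 control. Krtdap and Sbsn were also lower in both K14 ablation libraries, where Hes1 was lower, without passing (log2 fold changes -0.75 and -0.76; limma, adjusted p = 0.169 and 0.212). Under the mean of the ablation effects, 4 of the 7 suprabasal markers passed lower with a median of -1.36, and 2 of the 10 endothelial markers passed lower. The 10 endothelial markers summed to 96.7 and 156 in the Lrig1 ablation libraries, against 942 and 1029 in the Lrig1 control libraries, and 6 of 10 passed lower, while Sele was at 0 in both Lrig1 ablation libraries. The K14 ablation and K14 control libraries had 84.7 to 146 and 78.8 to 103, with Kdr at 0 in both K14 control libraries. The 7 myeloid and Langerhans cell markers summed to 234 and 245 in the Lrig1 ablation libraries, against 765 and 992 in the Lrig1 control libraries, and 1 of 7 passed lower. In Lrig1 control against K14 control, 4 of 7 suprabasal, 8 of 10 endothelial, 3 of 5 upper hair follicle, 3 of 5 bulge and hair germ, 3 of 5 tested fibroblast and 4 of 7 myeloid markers passed higher. The 7 basal markers had a median of -0.8 there, with 5 at an unadjusted p under 0.05 and 1 passing, which was higher. The basal markers, which summed to 214964 and 206411 in K14 ablation and 180522 and 177686 in K14 control, held 0 limma calls of 7 after ablation in either population, with 1 (Lrig1) and 0 (K14) at an unadjusted p under 0.05. Jag2 and Dll1 were higher in Lrig1 ablation library 1 than in library 2, as was the basal sum. In the K14 ablation pair the order was not shared: Jag2 and Dll1 were higher in library 2 and the basal sum in library 1. Dll4 had 6.21 and 1.59 normalised reads in the Lrig1 ablation libraries and, like the endothelial sum, was highest in the Lrig1 control libraries. The part of these markers in the Notch2, Notch3, Jag2, Dll1, Dll4 and Hes1 results was not tested.

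Mural cells, which make Notch3 in vessels, have 9 markers here. These summed to 1351 and 1281 in the Lrig1 ablation libraries, against 804 and 851 in the Lrig1 control libraries. They summed to 829 and 1156 in K14 ablation and 803 and 860 in K14 control. Most of that sum was Cspg4, at 1117 and 1067 in the Lrig1 ablation libraries, against 693 and 723 in the Lrig1 control libraries. Mcam had 130 and 72.4 in Lrig1 ablation and 25.6 and 35.2 in Lrig1 control. Acta2 had 19.5 and 19.1 in Lrig1 ablation and 5.82 and 8.46 in Lrig1 control. Pdgfrb had 2.66 and 3.98 in Lrig1 ablation and 3.49 and 5.64 in Lrig1 control, and Rgs5 at most 3.05 in any library. Of the others, Kcnj8 was at 0 in both K14 control and both Lrig1 control libraries, and Abcc9 in both libraries of K14 ablation, K14 control and Lrig1 ablation. The 4 tested mural markers held 0 calls with limma after ablation in either population, and 3 in Lrig1 and 1 in K14 had an unadjusted p under 0.05. Their median log2 fold change was 0.99 after Lrig1 ablation and 0.24 after K14 ablation. The part of mural cells in the Notch3 result was not tested.

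**Figure D5:**
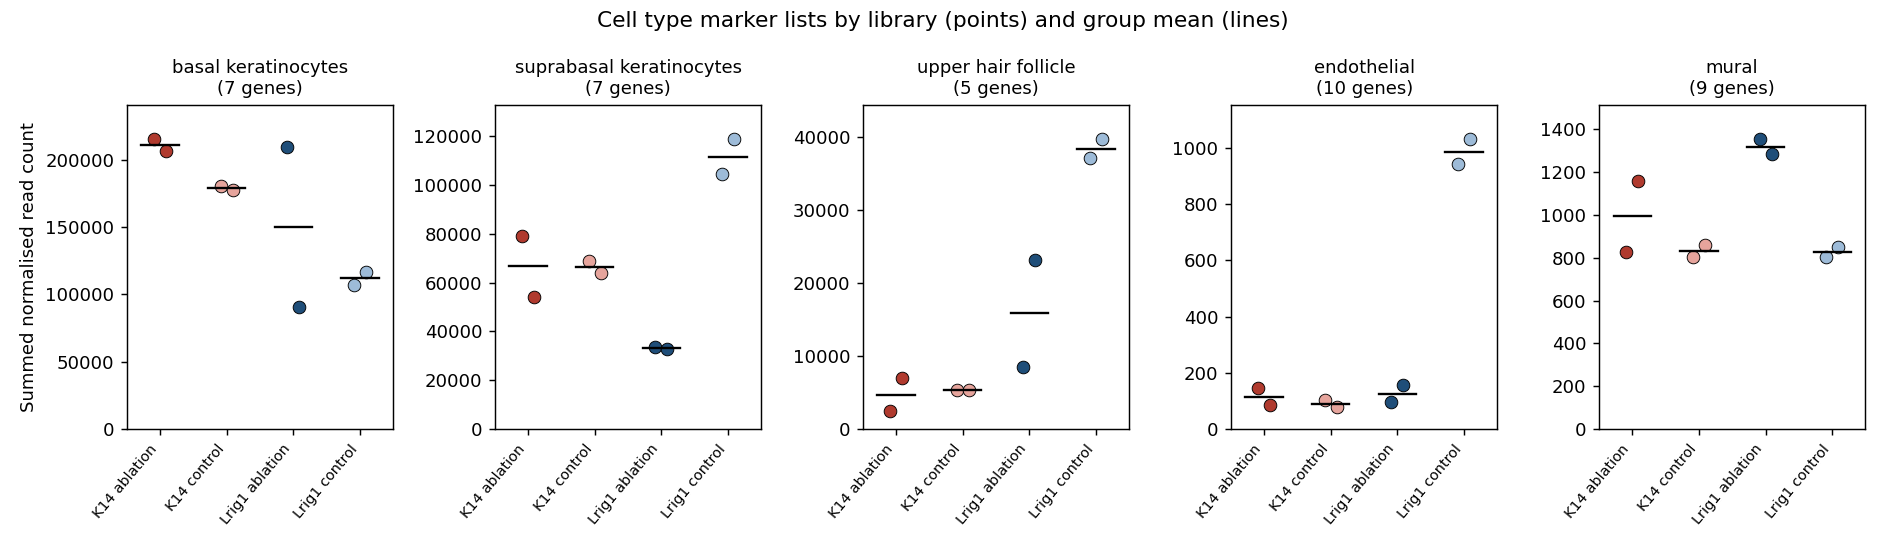
Summed normalised read count of cell type marker genes in each library for 5 of the lists (y axis, linear from 0; 1 point a library, lines at the group mean, ablation left of control). Suprabasal sums are 33585 and 32878 in the Lrig1 ablation libraries, against 104522 and 118455 in the Lrig1 control libraries, and endothelial sums 96.7 and 156 in Lrig1 ablation, against 942 and 1029 in Lrig1 control.

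The genes whose levels were most like those of each tested gene over the 8 libraries are a description, since all points share the 4 groups and their depth. Notch2 was closest to Ttc22 (Pearson r = 0.992) and Ube2h (r = 0.99), and Notch3 to its opposite-strand neighbour Gm17276 (r = 0.992). Notch1 was closest to Ssbp4 (r = 0.982) and Sdr39u1 (r = 0.971). Dll1 was closest to Rfc2 (r = 0.992) and Uhrf1 (r = 0.99), which encode a subunit of the replication clamp loader and a factor that maintains DNA methylation. Jag2 was closest to Raver1 (r = 0.988) and Mir692-2 (r = 0.987), and Jag1 to Pms2 and Srsf6 (both r = 0.974). Hes1 was closest to Gm22988 (r = 0.956) and Hivep3 (r = 0.952), Hey1 to Tmem192 (r = 0.951) and Zfp746 (r = 0.934), and Lfng to Ntn4 (r = 0.957) and Cspg4 (r = 0.95).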

How the data were processed

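RNA sequencing was done in 8 libraries in 4 groups of 2. Per the submitters' processing notes, reads were handled with Trimmomatic, STAR, Picard and HTSeq (0.11.1) on GRCm38 (mm10). Not given in the sources used here: strand setting, annotation, size factor program. The authors deposited a normalised signal for each gene, and in each library 100% of these values were whole multiples of 1 step within 0.001, as read counts divided by a size factor are. The 4 ablation columns are named otherwise than the labels, and went to the ablation groups as the only ones without a column. Their numbers come from the column names.

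log2(value + 1) was tested with limma 3.58.1 in R 4.3.3 (variance trend, empirical Bayes), in 1 fit of the 4 group means over 8 libraries (4 residual degrees of freedom), over 18140 genes that reached 1e-06 of the total in 2 or more libraries. The added 1 understates fold changes of low genes. P-values were adjusted by Benjamini-Hochberg over all tested genes, with a threshold of 0.05. The comparisons were ablation against control in each population, their difference, and the populations without and after ablation; the mean of the ablation effects was added after the values were seen. Alternatives were edgeR 4.0.16 and DESeq2 1.42.0 on the recovered reads, other scalings, pseudocounts and filters, array weights, the replicate number as a block, only the libraries compared, and leaving out each library. On simulated data limma recovered 82 of 100 genes changed by a log2 of 1 and 100 of 100 changed by 2 in the K14 comparison. This was over 17592 genes, with 10 false calls. The simulation gave all libraries the same spread and changed only genes of higher level. In the real libraries the ablation pairs were less alike than the control pairs. The simulation therefore checks the code and does not give the share of changes that would be found here.

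Members and lists were chosen with earlier results of these data known. All 10 members are named, as are wider-list genes past the threshold in any comparison, 7 others of that list whatever they did, and the 2 genes most like each tested member, apart from 2 such genes in all, which are not reported here. Levels between genes are per kilobase of exon from GENCODE M21, and promoter windows are from RefSeq in GRCm38.p6.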

Additional observations from a re-analysis of the deposited data

How the results depend on the processing

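The direction of the called genes Notch2, Notch3 and Jag2 after Lrig1 ablation held under every alternative run. In many alternatives it could not change, since they return the same log2 fold change. For these genes they are the filters, array weights, the block, only the libraries compared, and leaving out a K14 library. The counts that follow include such values and overstate how far direction was tested. Of 1150 recomputed values of the genes described and the called genes of the wider list, 982 kept direction and side of the threshold, 76 no longer passed, 55 newly passed and 37 changed sign, none of which passed either way (lowest adjusted p 0.164; 19 were of Hey1). With 2 libraries a group and 4 residual degrees of freedom, the number of calls rests on single libraries. All groups share the variance of 1 fit, and the ablation pairs were less alike than the control pairs. Without either K14 control library the log2 fold change of Notch2 after Lrig1 ablation stayed at -0.97. Its adjusted p thus moved with no change in the estimate. The part of the unlike ablation pairs in the other counts was not tested.

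Counts of the 9 genes that passed, without each library in turn, ran from 0 to 2 after K14 ablation, from 0 to 5 after Lrig1 ablation, from 0 to 2 for the difference, from 0 to 4 between controls, from 0 to 1 between ablation groups and from 0 to 6 for the mean effect. DESeq2 gave 1 after K14 ablation, 2 for the difference, 4 between controls and 4 for the mean effect. Array weights gave 1, 2, 5 and 4 in the same order. Scaling to library totals gave 4 between controls and 3 for the mean effect. With only the 4 libraries compared, the counts were 0 after Lrig1 ablation and 6 between controls.

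Calls over all genes also moved. After K14 ablation there were 34 as reported, 220 with DESeq2, 477 with array weights, 21 with the block, 0 with only the libraries compared, and 0 to 740 without 1 library. After Lrig1 ablation there were 737, 451 with array weights, 170 with only the libraries compared, and 5 to 2498 without 1 library. For the difference there were 36, 308 with DESeq2, 146 with array weights, 83 with a pseudocount of 5, 13 with the stricter filter, 5 with none, 1 with the block, 0 scaled to library totals and 0 to 2022 without 1 library. Between controls there were 1594, 6747 with array weights, 7269 with only the libraries compared and 1 to 3539 without 1 library. Between ablation groups there were 121, 664 with DESeq2, 31 with array weights, 75 with no filter, 0 with only the libraries compared and 0 to 4041 without 1 library. For the mean effect there were 513, 915 with DESeq2, 812 with array weights and 44 to 2592 without 1 library.

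Scaling to library totals moved the median of all genes to 0.229 after Lrig1 ablation, 0.19 for the difference and 0.107 between ablation groups. The sign changes outside left-out libraries were those of Hey1 after Lrig1 ablation (0.16 scaled to library totals, 0.01 with edgeR), between controls (-0.06 scaled to library totals) and for the mean effect (0.05 scaled to library totals), and of Notch2 and Notch3 between ablation groups (both 0.01 with TMM, 0.13 scaled to library totals, 0.03 with edgeR and 0.03 with DESeq2). Without 1 library, log2 fold changes that changed sign ran, after K14 ablation, from -0.43 to 0.25 for Hey1 and from -0.02 to 0.25 for Notch3. After Lrig1 ablation they ran from -0.47 to 0.35 for Hey1 and from -0.13 to 0.19 for Notch1. For the difference they ran from -0.38 to 0.44 for Hey1 and from -0.01 to 0.78 for Dll1. Between controls they ran from -0.15 to 0.21 for Hey1 and from -0.12 to 0.04 for Lfng. Between ablation groups they ran from -0.36 to 0.47 for Hey1, from -0.58 to 0.14 for Jag2, from -0.23 to 0.22 for Notch2 and from -0.23 to 0.23 for Notch3. For the mean effect Hey1 ran from -0.28 to 0.13.

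The replicate numbers were not shown to pair the libraries: deviations of same-numbered libraries correlated at 0.084 across the K14 groups and 0.028 across the Lrig1 groups. With the replicate number as a block, 0 of the 9 tested Notch pathway genes passed after K14 ablation and 2 after Lrig1 ablation (Jag2 had a limma adjusted p of 0.0727). Of the 9, 0 passed for the difference, 2 between controls and 0 between ablation groups. Depth limits Hey1 and Heyl, with at most 12 and 5 reads a library.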
